A study of Mus musculus with 6 samples.

Results

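The genes described here write, read or remove methyl groups on histone lysines, with the emphasis on lysine 4 of histone H3 and on the Polycomb complexes. Of 59 genes listed by name, 51 had at least 1 probe annotated with that gene alone, through 67 probes, out of 18069 genes that the array names in this way. Expression was measured in early-passage mouse embryonic fibroblasts, with 1 CodeLink single-colour whole-genome array for each culture. A gene-trap insertion inactivates the Ing1 locus in cultures C4, C3 and B1, while H2, H3 and I2 carry the wild-type locus of littermates. Embryos were prepared one by one, which gives 3 biological replicates per genotype. No further allele, drug, embryonic day or strain is named in the labels. Signals are in units of each array's median transcript probe, and differences are deficient minus wild type on the log2 scale.

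Methylation of lysine 4 of histone H3 marks active promoters and enhancers. It is laid down by the SET domain enzymes of the MLL and SETD1 families, which work only in complexes with shared subunits (COMPASS complexes). Polycomb repressive complex 2 methylates lysine 27 of histone H3, and Polycomb repressive complex 1 reads that mark and ubiquitinates histone H2A. Together they keep developmental genes silent, and in fibroblasts they silence the Ink4/Arf locus that drives senescence. ING proteins bind methylated lysine 4 through a PHD finger, which ties the disrupted gene to the product of these enzymes. The study looked for genes whose RNA differs when Ing1 is lost, and the enzymes of the mark that Ing1 reads are examined here for that difference.

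Ing1 itself read 0.93 to 1.39 in deficient and 11.1 to 11.7 in wild-type cultures (-3.23 ± 0.19, SE, limma adjusted p = 0.000286). Where its probe lies relative to the trap is unknown. Good flags covered 55.5% to 62.1% of the 34967 transcript probes per array. All 11 fibroblast markers with a probe had a good spot on every array. Of these, Thy1 was higher in deficient cells (0.89, limma adjusted p = 0.0492), the other 10 did not pass, and Prrx1 read 2.58 in H3 and 9.38 to 13.9 elsewhere. Pecam1 and Cdh5, which mark endothelium, had no good spot. The endothelial genes Kdr and Tek were tested, read 1.28 to 1.83 and 0.38 to 0.997 over all cultures, and did not pass. Of the macrophage markers, 10 were tested, and C1qa, C1qb and Mrc1 were higher in deficient cells by limma, where 7.63% of all genes passed; the other 7 did not pass. Mrc1 and Laptm5 met the flag filter through the deficient arrays only. Their summed signal over 13 genes was 57.1 to 172.6 in deficient and 26.7 to 61.3 in wild-type cultures, with C3 highest and C4 below H2, while Ptprc and Fcgr1 had no good spot. The sum over 12 proliferation genes was 173.2 to 262.9 in deficient and 149.3 to 165.8 in wild-type cultures. Whether these moved with any result below was not tested, and in bulk RNA fewer cells of a type and less RNA per cell cannot be told apart.

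Most of the histone methylation genes kept similar signals in the 2 genotypes, and 2 of them rose. A gene was tested where it had a good flag on all 3 arrays of a genotype, which 47 of the 51 genes did, through 56 probes. Of these 47, 44 had a good flag on all 6 arrays in some probe. With 1 probe per gene, the brightest one tested, 2 of 47 passed limma at an adjusted p under 0.05 (4.26%), against 7.63% of all 11893 genes tested. Both were higher in deficient cells and 0 were lower, where the background was 6.02% higher and 1.61% lower. One of them, Dido1, met the flag filter through the deficient arrays only, where it is bright. Its probe was also picked as the brightest through those arrays, since both other Dido1 probes read higher in H2 and I2 and did not pass. With a good flag required on all 6 arrays Phc2 was the single call. At an unadjusted p under 0.05 the count was 6 of 47 (12.8%), against 28.2% of all genes. Counted by probe, 2 of 56 passed (3.57%, against 6.57% of all 19575 probes tested), and 8 had an unadjusted p under 0.05 (14.3%, against 26.2%). The median difference over the 47 genes was 0.10, beside 0.07 over all genes, and the median size in either direction was 0.18, beside 0.26.

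How much change the data leave room for is given by the 95% interval of each difference. For 43 of the 47 genes (91.5%) the interval lay within 2-fold in either direction, where 78.4% of all genes did so. The exceptions were Kmt2a, Setdb2, Phc2 and Dido1, whose upper bounds were 1.13, 1.12, 1.12 and 3.55. In 9 of the 47 genes (19.1%) the signals of the genotypes did not overlap, against 33.7% of all genes. The genotypes had 3 arrays each, so differences well under 2-fold could be missed.

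**Figure D1:**
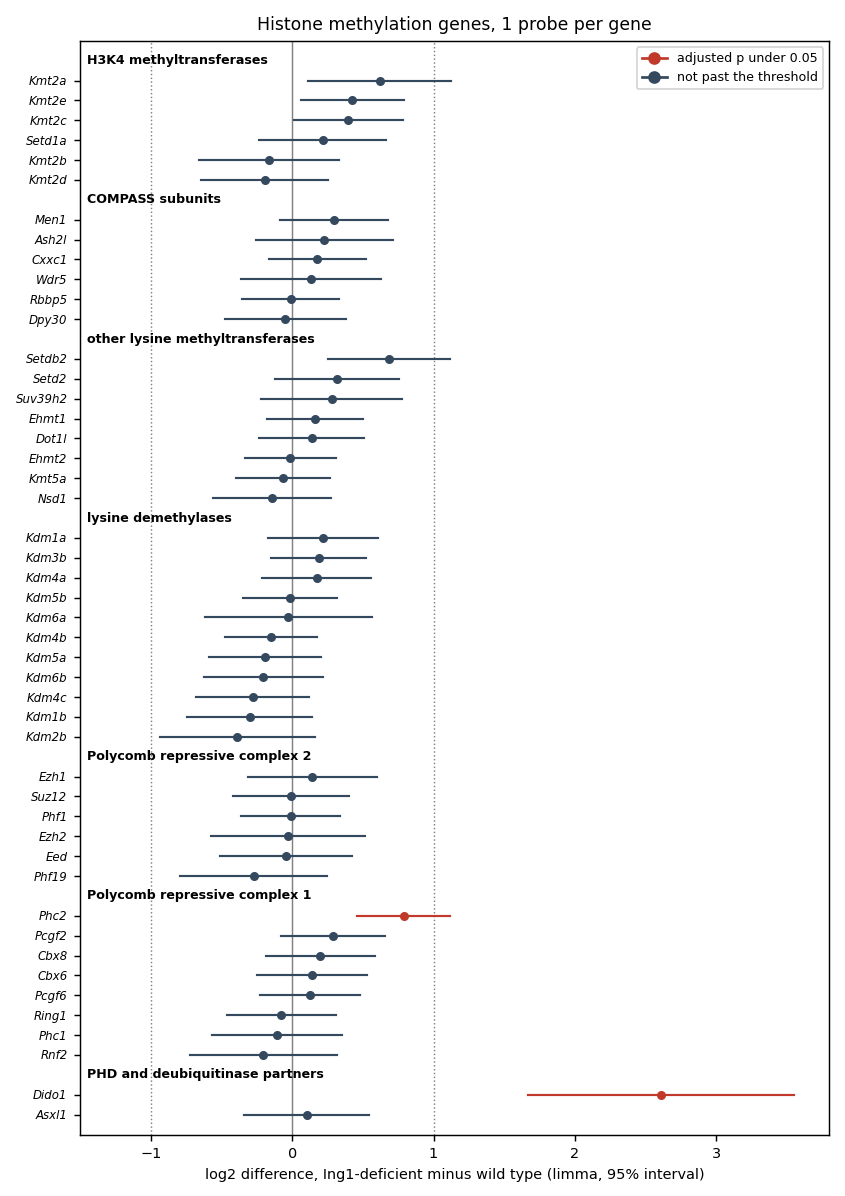
Log2 difference between Ing1-deficient and wild-type cultures (horizontal axis) for the 47 tested genes, 1 probe per gene, grouped by role, with 95% limma intervals; dotted lines mark 2-fold. Phc2 at 0.79 and Dido1 at 2.61, in red, passed the test, and the points of the other 45 genes lie between -0.39 and 0.69.

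**Figure D2:**
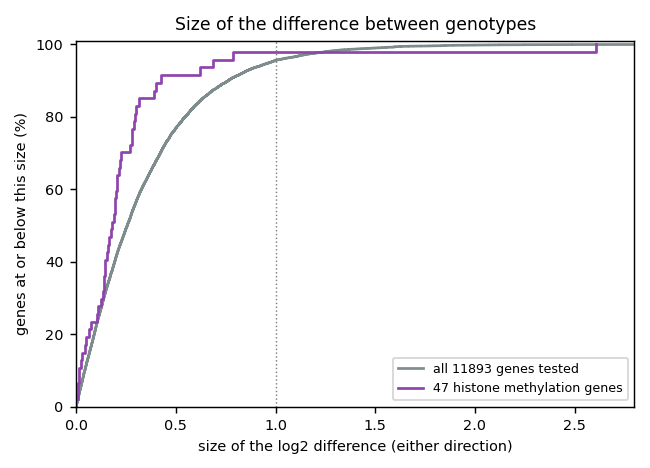
Share of genes (vertical axis, percent) whose log2 difference is at or below a given size (horizontal axis), for all 11893 genes tested and for the 47 histone methylation genes. The curve of the 47 genes lies above that of all genes over most of the range, and Dido1 alone forms the step at 2.61.

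Phc2 rose in the deficient cells. It encodes a Polyhomeotic protein, a subunit of Polycomb repressive complex 1 whose SAM domain links complexes into chains. Cultures C4, C3 and B1 read 16.3, 15.4 and 16.1 for Phc2, and H2, H3 and I2 read 9.05, 10.1 and 8.56. The deficient cultures lay close together and all above the wild-type cultures. Mean signals of 15.9 ± 0.47 and 9.23 ± 0.78 (SD, n = 3 per genotype) went with a fitted rise of 1.73-fold, taken from the log2 values (0.79 ± 0.15, SE, limma adjusted p = 0.0280, 95% interval 0.46 to 1.12). Every spot carried a good flag. The rise kept its size with each array left out (0.73 to 0.85), but it passed in 1 of those 6 fits, the one without H3 (adjusted p = 0.0130). The other fits gave adjusted p-values of 0.0797 without C4, 0.0561 without C3, 0.103 without B1, 0.0910 without H2 and 0.131 without I2, each with 1 array fewer. Without H3, 15% of all genes passed, against 7.63% in the main fit, and 4 of the 47 genes did.

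Dido1 rose by 1 of its 3 probes. Dido1 encodes a PHD-finger protein that, like Ing1, binds methylated lysine 4 of histone H3, and its locus gives several transcripts. The probe from the transcript NM_175551 read 8.62, 6.37 and 8.26 in C4, C3 and B1, and 0.93, 2.79 and 0.77 in H2, H3 and I2. All deficient cultures were above all wild-type cultures, and H3 stood apart from H2 and I2. Mean signals of 7.75 ± 1.21 and 1.498 ± 1.12 (SD, n = 3 per genotype) went with a fitted rise of 6.09-fold, again from the log2 values and so not the ratio of these means (2.61 ± 0.42, SE, limma adjusted p = 0.0216). The spot of H3 was flagged irregular, so the probe met the filter through the deficient arrays only, in which it was bright. Without H3 the difference was 3.18 (adjusted p = 0.000859).

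The other Dido1 probes gave smaller differences that did not pass. The probe from NM_177852 read 2.78, 3.25 and 2.76 in C4, C3 and B1, against 1.52, 2.86 and 1.42 in H2, H3 and I2 (0.67 ± 0.26, SE, limma adjusted p = 0.141). As with the first probe, H3 was the highest wild-type culture, here at the level of the deficient ones. Without H3 this probe gave 0.99 with an adjusted p of 0.00987, in a fit where 15% of all genes passed. Leaving out any other array gave a limma adjusted p of 0.234 to 0.389. The third probe, from the sequence tag BB243121, read 2.21 to 2.78 in deficient and 2.27 to 2.79 in wild-type cultures (-0.09 ± 0.17, SE), with full overlap. The probes carry no exon positions in the sources used here, so which transcripts each one reads is unknown.

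Leaving out 1 array ended the call of the first Dido1 probe 4 times out of 6. It had an adjusted p of 0.0802 without C4, 0.0944 without B1, 0.0859 without H2 and 0.0969 without I2, and 0.0388 without C3. The differences in the 4 lost fits were 2.25 to 2.55. With normexp background correction, whose offset shrinks differences of dim spots, it gave 1.37 (adjusted p = 0.0254). With the floor raised from 0.57 to 1.14 the difference was 2.32 and the adjusted p 0.0878. Of the spots touching it on the slide, those of Notch1 and Acly above and below also read higher in deficient cells. Notch1 gave 0.91 (adjusted p = 0.0961) and Acly 0.78 (adjusted p = 0.0625). The spot with no gene name to its right gave 0.80 (adjusted p = 0.147), while the tested spots at other corners gave -0.13 and -0.15. The part of neighbouring spots in the Dido1 value was not tested.

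**Figure D3:**
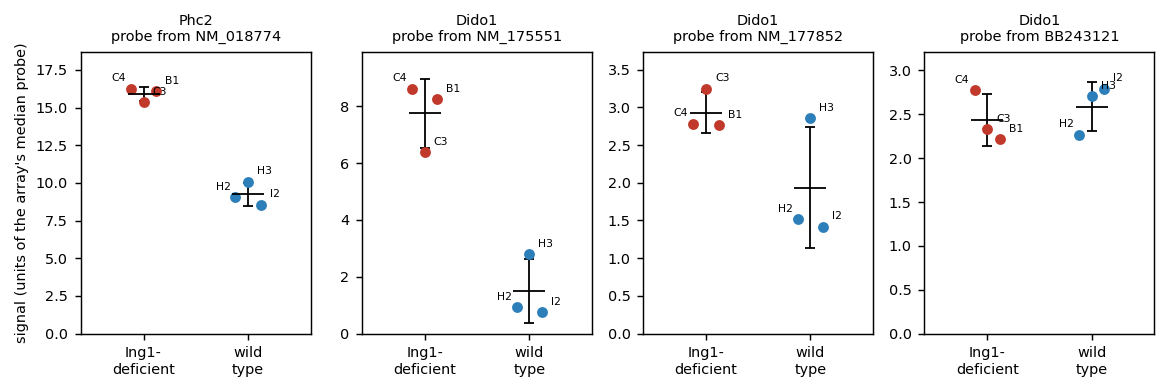
Signal of each culture (points; vertical axis from 0, in units of the array's median probe) with group mean and SD (n = 3 each) for the Phc2 probe and the 3 Dido1 probes, titled by the sequence each was designed from. The groups are apart for Phc2 and for the first Dido1 probe, H3 overlaps the deficient cultures in the second, and the groups overlap fully in the third.

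None of the 6 tested H3K4 methyltransferase genes passed, where 7.63% of all genes did, and 3 of them had an unadjusted p under 0.05, where 28.2% of all genes did. Kmt2a encodes MLL, the founding member, which maintains Hox expression. It read 3.12, 3.27 and 2.73 in C4, C3 and B1, and 2.15, 2.55 and 1.40 in H2, H3 and I2, so every deficient culture was higher. The difference was 0.62 ± 0.22 (SE, limma adjusted p = 0.123), and it was 0.37 without I2 and 0.80 (adjusted p = 0.0452) without H3. With any array other than H3 left out, the limma adjusted p was 0.201 to 0.355. The fit without H3 called 15% of all genes. Kmt2e, whose SET protein has little or no methyltransferase activity and whose PHD finger binds methylated lysine 4, read 19.1, 17.0 and 20.1 in C4, C3 and B1. In H2, H3 and I2 it read 13.9, 15.7 and 12.3, again without overlap (0.43 ± 0.16, SE, limma adjusted p = 0.137). Kmt2c, an enhancer methyltransferase, read 8.67, 6.85 and 7.93 in deficient and 5.03, 6.59 and 6.21 in wild-type cultures (0.40 ± 0.17, SE, limma adjusted p = 0.181). The groups did not overlap, but the lowest deficient culture, C3, and the highest wild-type culture, H3, were close. That makes 3 of the 6 genes without overlap (50%), against 33.7% of all genes.

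The other H3K4 methyltransferases had an unadjusted p above 0.05, and none was tested against these genes. Kmt2d, the partner enzyme of Kmt2c at enhancers, read 0.84 to 0.98 in deficient and 0.81 to 1.33 in wild-type cultures (-0.20, interval -0.65 to 0.25). Kmt2b, the closest relative of Kmt2a, read 1.28 to 1.97 and 1.41 to 2.18 (-0.16, interval -0.66 to 0.33). Setd1a, the catalytic subunit of the complex that makes most trimethylated lysine 4, read 4.49 to 5.95 and 3.51 to 5.27 (0.21, interval -0.23 to 0.66). In all 3 genes the groups overlapped. The 2 other Setd1a probes, the second Kmt2c probe and both probes of Setd7, a monomethyltransferase, were flagged low on most or all arrays and were not tested. Setd1b had no probe of its own.

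The COMPASS subunits gave no call in 6 tested genes, where 7.63% of all genes passed. None had an unadjusted p under 0.05 in limma, where 28.2% of all genes did. Every COMPASS complex or most of them need Wdr5, Rbbp5, Ash2l and Dpy30 for activity. Men1 and Cxxc1 belong to only part of the complexes. Wdr5, the WD40 scaffold, read 9.56, 6.40 and 6.54 in deficient C4, C3 and B1, and 7.71, 5.26 and 7.46 in wild-type H2, H3 and I2 (0.14, interval -0.36 to 0.63). Its highest value was in a deficient culture and its lowest in a wild-type one, with the rest mixed. Dpy30, a small subunit that stimulates the enzymes, read 48.8, 34.3 and 39.2 in C4, C3 and B1, and 48.6, 35.6 and 41.9 in H2, H3 and I2 (-0.05, interval -0.48 to 0.38), and its second probe gave 0.08. C4 and H2, 1 culture of each genotype, were its highest. Ash2l, which joins Rbbp5 to activate the SET domain, read 10.2 in C4 and 5.84 to 6.47 in the 5 other cultures (0.23, interval -0.26 to 0.71). Rbbp5 itself gave -0.01 (interval -0.35 to 0.33). Men1, menin, which anchors the MLL complexes, read 5.74 to 7.32 in deficient and 4.56 to 5.69 in wild-type cultures. Cxxc1, which brings the SETD1 complexes to CpG islands, read 2.06 to 2.53 and 1.95 to 1.99. In Men1 and Cxxc1 the groups did not overlap, and neither passed (0.30 and 0.18, limma adjusted p = 0.302 and 0.499). That is 2 of the 6 genes without overlap (33.3%), against 33.7% of all genes.

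Enzymes for other lysines gave no call in 8 tested genes, where 7.63% of all genes passed. Of the 8, 1 had an unadjusted p under 0.05 in limma (12.5%, against 28.2% of all genes). Setdb2, a lysine 9 methyltransferase, came nearest, at 1.62, 1.41 and 1.94 in C4, C3 and B1, and 1.10, 1.153 and 0.83 in H2, H3 and I2. The groups did not overlap, and the difference was 0.69 ± 0.19 (SE, limma adjusted p = 0.0650), or 0.78 without H3 (adjusted p = 0.0444). Leaving out any other array gave a limma adjusted p of 0.0779 to 0.225. The difference was 0.23 after normexp (adjusted p = 0.155) and 0.52 with a floor of 1.14 (adjusted p = 0.124). In the fit without H3, 15% of all genes passed. On these arrays, 95% of negative control spots read under 0.30 to 0.40. Nsd1, a lysine 36 methyltransferase, had 2 tested probes. The brighter one read 3.29 and 4.004 in C4 and C3, with B1 masked and left out of the fit, against 3.79 to 4.32 in wild type (-0.14, interval -0.56 to 0.28). The other read 1.69, 1.81 and 2.12 in C4, C3 (flagged irregular) and B1, and 3.23, 1.96 and 3.06 in H2, H3 and I2 (-0.53 ± 0.22, SE, limma adjusted p = 0.160). This probe met the flag filter through the wild-type arrays only, where it is brighter. H3 was the wild-type culture that overlapped the deficient ones there, and without H3 the difference was -0.75 (adjusted p = 0.0276). With any other array left out, this probe gave -0.395 to -0.621 and a limma adjusted p of 0.2185 to 0.4005.

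The remaining writers overlapped between genotypes, so Setdb2 was the 1 gene of 8 without overlap (12.5%, against 33.7% of all genes). Kmt5a, listed under its older name Setd8, monomethylates lysine 20 of histone H4. It read 26.7, 23.1 and 24.0 in C4, C3 and B1, and 26.1, 26.5 and 24.4 in H2, H3 and I2 (-0.07, interval -0.40 to 0.27), and its second probe gave -0.11. Ehmt1 and Ehmt2, the paired lysine 9 methyltransferases of euchromatin, gave 0.16 and -0.01. Ehmt1 read 22.5, 18.9 and 22.8 in the deficient and 18.8, 19.5 and 19.0 in the wild-type cultures in the same order, and C3 fell among the wild-type values. The second Ehmt2 probe gave -0.19. Setd2, which trimethylates lysine 36, gave 0.31, Dot1l, the lysine 79 enzyme, 0.14, and Suv39h2, a heterochromatin enzyme, 0.28. Setdb1, Ash1l and Suv39h1 had no probe of their own.

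None of 11 tested lysine demethylase genes passed, and none had an unadjusted p under 0.05, where 7.63% and 28.2% of all genes did. Of the 11 differences, 8 were below 0 and 3 above, with a median of -0.15, where 57.3% of all genes were above 0. Kdm5b, which erases lysine 4 methylation, read 23.3, 21.7 and 22.0 in C4, C3 and B1, and 24.4, 20.6 and 22.8 in H2, H3 and I2 (-0.02, interval -0.35 to 0.32). The wild-type cultures spanned the deficient ones. Its relative Kdm5a gave -0.20. Kdm6b, the inducible lysine 27 demethylase, read 23.1, 17.2 and 22.9 in C4, C3 and B1, and 28.7, 21.5 and 22.5 in H2, H3 and I2 (-0.20, interval -0.63 to 0.22), with C3 lowest and H2 highest. Kdm1a, LSD1, which removes lysine 4 methylation inside corepressor complexes, read 14.5 to 19.6 and 12.8 to 14.7 (0.22, interval -0.17 to 0.61). Among the lysine 9 and 36 enzymes, Kdm4a gave 0.17, Kdm4b -0.15 and Kdm4c -0.28. Kdm4b read 9.64 to 9.99 in deficient and 10.3 to 11.7 in wild type, and its second probe gave 0.15. It was the 1 demethylase gene of 11 whose groups did not overlap (9.09%, against 33.7% of all genes).

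Kdm2b, which recruits a Polycomb complex to CpG islands, gave the lowest difference of the 47 genes when the brightest probe of each is used; the dimmer Nsd1 probe above was lower. Its brighter probe read 3.53, 2.73 and 3.07 in C4, C3 and B1, and 5.60, 2.86 and 4.14 in H2, H3 and I2. H2 and I2 were higher than every deficient culture and H3 was not. The difference was -0.39 (interval -0.93 to 0.16), or -0.64 without H3 (adjusted p = 0.0715), and the second Kdm2b probe gave 0.16. With any other array left out, the brighter probe gave -0.15 to -0.48 and a limma adjusted p of 0.346 to 0.748. Kdm1b and Kdm3b gave -0.30 and 0.19. Phf2 was flagged low on every array, and Kdm2a, Kdm3a and Phf8 had no probe of their own.

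Kdm6a, the X-linked lysine 27 demethylase UTX, is known to escape X inactivation, so the sex of the embryos bears on it. It read 8.79, 5.66 and 5.63 in C4, C3 and B1, and 7.63, 4.66 and 8.32 in H2, H3 and I2 (-0.03, interval -0.62 to 0.57). The Y-linked gene Eif2s3y read 16.8 in B1, 16.3 in H2 and 12.1 in H3 and at most 0.41 in C4, C3 and I2. Uty, the Y-linked relative of Kdm6a, read 1.62, 2.51 and 1.59 in B1, H2 and H3 and was flagged low in the rest. Xist, by 1 of its 2 probes, read 2.34, 1.63 and 4.36 in C4, C3 and I2 and was flagged low in the others. The Kdm5d probe read 1.19 to 3.07 and was not high in the same cultures. Each genotype thus held cultures with and without Y-linked signal, in a ratio of 1 to 2 in deficient and 2 to 1 in wild type. With the Eif2s3y signal as a covariate, limma called 0 of the 47 genes (5 at an unadjusted p under 0.05) and 23 of all 19575 probes. Phc2 then gave 0.81 (adjusted p = 0.0753) and Dido1 2.77 (adjusted p = 0.0605).

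In Polycomb repressive complex 2, none of 6 tested genes passed and none had an unadjusted p under 0.05 in limma, where 7.63% and 28.2% of all genes did, so a count of 0 among 6 says little about the complex. Ezh2, the catalytic subunit of dividing cells, is a textbook target of E2F factors, as are the DNA replication genes. The promoters that hold an E2F motif are therefore shown, with Mcm5, a replication helicase gene of the same cultures, for comparison. The letters TTTGGCGC and TTTCCCGC were searched on both strands in RefSeq windows from 250 bases before to 50 after each start, build GRCm38.p6. Of 32851 windows of that length 1.56% held either motif. Of the 51 genes and the 8 without a probe, 46 matched a window by symbol, and Ezh2, Suz12 and Phf19 were the genes with a match, all in this complex. These 46 genes had 66 windows, of which 3 held a motif (4.55%), and this complex had 3 of 8. Capitals mark the match, which is a description of letters and not a shown binding site.
Ezh2 (chr6:47595011-47595110, minus strand): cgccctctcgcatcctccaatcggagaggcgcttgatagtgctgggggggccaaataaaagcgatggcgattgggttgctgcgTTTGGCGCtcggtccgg
Suz12 (chr11:79992856-79992955, plus strand): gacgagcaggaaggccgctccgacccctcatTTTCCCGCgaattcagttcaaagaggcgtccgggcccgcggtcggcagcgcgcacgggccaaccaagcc
Phf19 (chr2:34914127-34914226, minus strand): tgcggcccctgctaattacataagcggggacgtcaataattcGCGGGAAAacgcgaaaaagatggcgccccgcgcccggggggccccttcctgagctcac
Mcm5 (chr8:75109309-75109408, plus strand): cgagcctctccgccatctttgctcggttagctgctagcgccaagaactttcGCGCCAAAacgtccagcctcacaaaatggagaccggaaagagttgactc

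Mcm5, chosen after its values were seen, rose in the deficient cultures, and the Polycomb genes with a motif did not pass. Of 13 proliferation genes with a window, Mcm3 and Mcm6 also held a motif, and Mcm5 had the largest difference of these 3. Mcm3 passed (1.09, limma adjusted p = 0.0332) and Mcm6 did not (0.75, limma adjusted p = 0.0876). Ccne1 (0.70, limma adjusted p = 0.0348) and Rrm2 (0.87, limma adjusted p = 0.0372) also passed and were not among the genes with a motif. A link between motif and difference was not tested. Mcm5 read 11.96, 5.45 (flagged irregular) and 5.27 in C4, C3 and B1, and 2.52, 3.58 and 2.71 in H2, H3 and I2 (1.27 ± 0.31, SE, limma adjusted p = 0.0453). Ezh2 read 5.46, 2.77 and 3.31 in C4, C3 and B1, and 3.95, 3.53 and 3.82 in H2, H3 and I2 (-0.03, interval -0.57 to 0.51). C4 was the highest culture for both genes, while C3 and B1 lay above wild type for Mcm5 and below it for Ezh2. Suz12, which holds the complex together, read 14.5, 10.8 and 11.3 in deficient and 13.5, 10.4 and 12.8 in wild-type cultures in the same order (-0.01, interval -0.42 to 0.40). Phf19, a Tudor-domain accessory subunit, read 3.56 in C4 and 6.04 to 6.56 in the other cultures of both genotypes (-0.27, interval -0.79 to 0.25). C4 was thus lowest for Phf19 and highest for Ezh2. The difference between Mcm5 and these genes was not tested.

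The other subunits of the complex overlapped as well, so 0 of its 6 tested genes were without overlap, against 33.7% of all genes. Eed, which binds trimethylated lysine 27, read 9.68, 8.09 and 8.77 in C4, C3 and B1, and 10.7, 6.70 and 10.5 in H2, H3 and I2 (-0.04, interval -0.51 to 0.42). The wild-type cultures thus lay on both sides of the deficient ones, with H3 lowest. Ezh1, the catalytic subunit of resting cells, read 6.30 in C4 and 3.83 to 4.69 in the others (0.14, interval -0.31 to 0.60). Phf1 gave -0.01 (interval -0.36 to 0.34). Jarid2, a DNA-binding partner, was flagged low on 3 of the 6 arrays and was not tested.

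**Figure D4:**
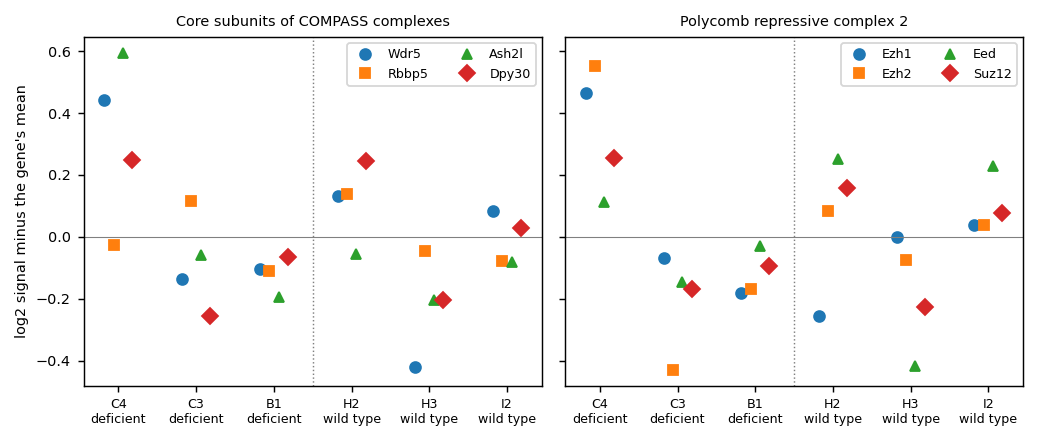
Log2 signal of each culture minus the gene's mean over the 6 arrays (vertical axis), for 4 core COMPASS subunits (left) and 4 genes of Polycomb repressive complex 2 (right); the dotted line separates genotypes. C4 lies above the other deficient cultures for 7 of the 8 genes, Rbbp5 being the exception, and no gene separates the genotypes.

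In Polycomb repressive complex 1, Phc2 was the call among 8 tested genes (12.5%, against 7.63% of all genes). It was also the 1 gene with an unadjusted p under 0.05 in limma (12.5%, against 28.2% of all genes). Its paralogue Phc1 read 5.74 to 8.36 in deficient and 6.66 to 9.32 in wild-type cultures (-0.11, interval -0.57 to 0.35), and the groups overlapped. The E3 ligase genes Ring1 and Rnf2, which ubiquitinate histone H2A, gave -0.08 and -0.20. Rnf2 read 1.601 to 2.16 in deficient and 1.51 to 2.65 in wild-type cultures. Pcgf2, a RING partner of the ligases, read 15.0, 12.6 and 15.6 in C4, C3 and B1, and 13.0, 11.6 and 10.7 in H2, H3 and I2 by its brighter probe (0.29, interval -0.08 to 0.66). C3 fell below H2 there, and the second Pcgf2 probe gave -0.07. Pcgf6, which defines another variant of the complex, gave 0.13, and the chromodomain genes Cbx6 and Cbx8 gave 0.14 and 0.20. The Cbx2 spot was flagged low on every array. Bmi1, the Polycomb repressor of Ink4/Arf, had no probe annotated with it alone. Asxl1, a cofactor of the deubiquitinase that opposes this complex, read 8.29, 6.97 and 6.59 in C4, C3 and B1, and 6.05, 5.85 and 8.70 in H2, H3 and I2 (0.10, interval -0.34 to 0.54), with I2 highest.

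A second list held 57 other genes of lysine and arginine methylation, PHD readers and Polycomb cofactors, of which 52 had a probe and 50 were tested. Of these, 1 rose, 1 fell and 48 did not pass (4% called, against the 7.63% of all genes). At an unadjusted p under 0.05 the count was 20 of 50 (40%, against 28.2% of all genes), 12 higher and 8 lower. The median was 0.04 and the median size in either direction 0.38, beside 0.07 and 0.26 over all genes. Kmt5b, which di- and trimethylates lysine 20 of histone H4 after Kmt5a, read 4.57, 3.31 and 3.997 in C4, C3 and B1, and 0.99, 1.96 and 1.205 in H2, H3 and I2. All deficient cultures were higher, H3 was again the highest wild-type culture, and the rise was 2.96-fold (1.56 ± 0.26, SE, limma adjusted p = 0.0220). Setd6, which methylates the NF-kB subunit RelA, read 1.35, 1.88 and 1.44 in deficient and 2.57, 2.35 and 2.63 in wild-type cultures in the same order, and fell by 0.71 on the log2 scale (SE 0.17, limma adjusted p = 0.0453). Without an array, Kmt5b passed in 2 of 6 fits and Setd6 in 1 of 6. Kmt5b was lost without C4, B1, H2 or I2 (differences of 1.35 to 1.55, adjusted p up to 0.106), and Setd6 passed only without H3 (adjusted p up to 0.174 in the rest). Of 14 other alternatives, Kmt5b passed in 10 and Setd6 in 6. Kmt5b missed the threshold with the floor of 1.14 (1.496, adjusted p = 0.0849), without a flag filter (0.188) and with the Eif2s3y covariate (0.0662). It also missed by the methods' t-test after adjustment (0.16). Setd6 missed the threshold after normexp (-0.33, adjusted p = 0.0812) and loess normalization (-0.70, adjusted p = 0.0547). It also missed with floors of 0.01 (0.0685) and 1.14 (0.1025), without a flag filter (0.201) and with the covariate (0.0962). By the methods' t-test it missed after adjustment (0.168) and by the ratio over 2 or under 0.5.

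Across the histone methylation genes, the cultures also differed within each genotype. C4 was the highest culture for 18 of the 47 genes (38.3%, against 33.3% of all genes), H2 for 12 (25.5%, against 24.1%) and H3 for none (against 6.15%). H3 was the lowest culture for 15 genes (31.9%, against 21.4%). Median deviations from the gene means were 0.18, -0.06 and -0.03 for C4, C3 and B1, and 0.11, -0.12 and -0.02 for H2, H3 and I2. C4 and H2, of different genotypes, thus stood on the same side, as did C3 and H3. Over all genes the same measure was 0.10, 0.02 and 0.02 for C4, C3 and B1, and 0.01, -0.08 and -0.02 for H2, H3 and I2, so C3 and B1 lay on the other side of 0.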

How the data were processed

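Gene expression was read in 6 cultures of mouse embryonic fibroblasts, 3 per genotype. Per the labels and the file headers, the authors used a GenePix scanner, read spots with CodeLink Expression Analysis 4.1.0.29054 and normalized to the median. The deposited linear intensity equals spot mean minus local background median, divided by the array's median transcript probe. The authors' deposited series table holds the same intensity in 217362 of 217362 values. Each array lies on its own slide, so no slide or scan block could be fitted.

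Masked spots (105 to 177 per array) were missing values. Intensities under 0.57, the median over arrays of the 1st percentile of good spots, were set to 0.57 before log2, which understates differences of dim probes. Probes flagged good throughout at least 1 genotype (19575) were fitted with limma 3.58.1 in R 4.3.3 (two-sided, Benjamini-Hochberg over all probes, threshold 0.05). The fit was tested on simulated data. Gene symbols came from the platform annotation, updated by gene ID through RefSeq assembly GRCm38.p6 for 21487 of 21615 probes with 1 symbol. Named were all members by role, with values per array for calls, for unadjusted p under 0.05, for the 2 brightest of each role and for probes of a gene that disagree. The members, lists, motifs and alternatives were chosen with earlier results of these data known. No paired analysis was possible because the genotypes share only 1 replicate number.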

Additional observations from a re-analysis of the deposited data

How the results depend on the processing

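Phc2, Dido1, Kmt5b and Setd6 kept their direction under every alternative that measured them. Of the 47 tested genes, 29 never took the opposite sign (Suv39h2 among them stood at 0 with a floor of 1.14) and 18 did in some alternative, none of them Phc2 or Dido1. Phc2 and Dido1 were also the genes called with the series table and a variance trend, and after normexp correction, quantile normalization, loess normalization and with a floor of 0.01, although the calls over all probes went from 1286 to 575, 739, 750 and 275 under these last 4. Averaging the probes of each gene also gave 2 genes. The count of genes was 1 with a floor of 1.14 (191 probes over all), 1 with a good flag required on all 6 arrays and 1 by the methods' t-test with a ratio over 2 or under 0.5 (606). It was 0 without a filter on flags (20), with the Eif2s3y covariate (23) and by the methods' t-test after adjustment (7). In the setting without a filter, 6 genes had an unadjusted p under 0.05, with the covariate 5, and by the t-test 4. Counts of member probes equalled those of genes in these settings, and the cause of the differences was not tested. Array weights gave 5 genes, 7 probes and 4720 probes over all, and called 25.6% of all genes. The leading letter of the culture name as a random block gave 31 genes, 35 probes and 12903 over all. That setting called 66.8% of all genes, with an estimated correlation of -0.886 within letters. A negative correlation narrows the standard errors. Leaving out 1 array gave 0 to 4 genes, 0 to 6 member probes and 5 to 2725 probes over all. It called 0.0336% to 15% of all genes, with the highest counts without H3. The median over the 47 genes was 0.10, and -0.024 (without H3) to 0.13 with an array left out; it was also below 0 after quantile normalization (-0.015) and with the covariate (-0.011). The share of higher calls was 75.2%, but 60.8% after quantile normalization and 65.6% after loess. Signal over background limits Setdb2, Kmt2d, Suv39h2, Kdm1b and the 4 genes not tested. It also limits the first Dido1 probe, which read 0.93 and 0.77 in H2 and I2 beside the floor of 0.57. No paired analysis was possible because the genotypes share only 1 replicate number. The slide and scan block was not run, since each array lies on its own slide.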
